A study of Mus musculus with 4 samples.

Results

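Early progenitors without *Hlf* or *Procr* were taken from single-cell RNA-seq of mouse bone marrow. They were cells with no UMI of *Hlf* or *Procr* and with at least 1 UMI of 3 or more of 6 genes, *Adgrg1*, *Myct1*, *Ctla2a*, *Meis1*, *Adgrl4* and *Car2*, in which the basophil proteases *Mcpt8* and *Prss34* together stayed under 0.5% of all UMIs. A UMI (unique molecular identifier) marks 1 captured RNA molecule. The rule selected 1061 of 8969 cells (11.8%). The cells were selected on the UMIs of these genes, so the levels of the latter describe the selection and are not a result.

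Blood cells arise from stem cells through multipotent progenitors, which keep part of the stem cell program while they begin to transcribe genes of the myeloid, lymphoid, basophil and megakaryocyte lines at low level. *Hlf*, a transcription factor, and *Procr*, the endothelial protein C receptor, mark the stem cell end of this path and are lost early. Granulocyte-monocyte progenitors (GMPs) lie further along and make much RNA for the enzymes of primary granules, such as *Mpo*, *Elane* and *Prtn3*. *Tet2* encodes an enzyme that oxidizes 5-methylcytosine in DNA and is often mutated in human myeloid disease.

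The data were 4 libraries, 1 for each of 2 genotypes in each of 2 sorts. *Tet2* KO mice carried *Mx1*-Cre and *Tet2* fl/fl, and the controls, called WT, were Cre-negative *Tet2* fl/fl littermates, so the controls carried the floxed alleles too. The *Mx1* promoter that drives Cre is switched on by interferon and is not confined to blood cells. Mice of both genotypes received 4 doses of polyinosinic-polycytidylic acid (pI:pC, 12.5 ug/g), which itself induces interferon, and were 8 to 12 weeks old. The GMP sort held Lin- cKit+ Sca1- CD34+ CD16/32+ cells, and the Lin-/CD11b+ sort held lineage-negative progenitors together with CD11b+ myeloid cells. Both sorts of a genotype came from the same mouse and each genotype from 1 mouse, so genotype cannot be told apart from mouse or preparation. With 1 library per group there was no test. Intervals are at 95% and express counting error alone.

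The libraries held 22681380 to 42561110 UMIs, and the members 4394409 in WT GMP, 4205133 in *Tet2* KO GMP, 2660102 in WT Lin-/CD11b+ and 4275224 in *Tet2* KO Lin-/CD11b+. Where 4 values are given below, they follow this order, and 2 values of a sort give WT first. The median member had 18889, 16623, 13154 and 10300.5 UMIs and 3560, 3249, 2971 and 2539 detected genes. Levels are CPM (the counts of a gene scaled to a common total of UMIs per library) over the summed members of a library. A sample table of the study lists the cell numbers of the *Tet2* KO GMP and the WT Lin-/CD11b+ libraries in exchanged places, and the deposited assignment was used. Pairs of libraries shared 4 to 8 cell barcodes. The level of *Tet2* in the members, 12.3, 13.8, 10.9 and 17.3 CPM, does not check the deletion, since the assay reads the 3′ end of the transcript.

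RNA of mature cells was detected in many members of the Lin-/CD11b+ sort, and much of it sat in few cells. *S100a8*, a calcium-binding protein of neutrophils, was in 77.4% and 62.4% of the WT and *Tet2* KO Lin-/CD11b+ members, and *Jchain*, the joining chain of antibodies, in 45.6% and 37.6%. In cells thinned to 5000 UMIs these shares were 42.1% and 40.7% for *S100a8* and 25.1% and 21.1% for *Jchain*. Antibody-rich cells, those outside the group in which *Igkc*, *Igha*, *Jchain*, *Ighm* and *Iglc2* together took 5% or more of the UMIs, had *S100a8* in 30.5% and 39.5% when thinned. *Jchain* had 618 and 240.2 CPM in WT and *Tet2* KO Lin-/CD11b+ members, with 92.6% and 81% of its UMIs in the 3 highest cells, against 0.228 and 0.238 CPM in the GMP members. *Igkc* and *Igha*, antibody chains, were likewise at 5358 and 1752 CPM and 1338 and 594 CPM in the Lin-/CD11b+ members, with 91.7% and 78.3% of the *Igkc* UMIs in 3 cells. *S100a8* had 1028 and 536 CPM there, with 89.1% and 70.7% in 3 cells, against 38 and 53.3 CPM in the GMP members, and *S100a9*, *Camp* and *Ngp* were also higher in the Lin-/CD11b+ members. Immunoglobulin genes took 0.5% or more of the UMIs in 0, 0, 6 and 3 members and neutrophil genes in 1, 0, 3 and 5. No doublet caller was run. Counts of genes past a fold, and sums between genotypes, were also computed without these cells, which leaves in the members with few such UMIs. The values are given where they moved. Sums between sorts were not computed without these cells.

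The name of the group was checked with its markers. In the GMP sort the name covers cells that also held the granule RNA of GMPs. Thinned to 5000 UMIs, 227 of 227 and 251 of 251 GMP members had *Mpo*, and 94.3% and 99.6% had *Elane*. Their summed primary granule genes, 22253 and 24269 CPM, stood beside 28189 and 28616.5 CPM in the other GMP cells. *Cd34*, a sialomucin of progenitors and endothelium, was detected in 203 of 227, 207 of 251, 175 of 195 and 315 of 388 members, at 173, 137, 251 and 194 CPM, against 87.7, 65.9, 54.4 and 54 CPM in the other cells of the same libraries. *Muc13*, a transmembrane mucin, had 91.5, 60.2, 86.5 and 95 CPM, against 32.6, 21.4, 15.8 and 16.3 CPM in the other cells. Neither gene is in the rule, but RNA of the same cells chose the members, so these contrasts are descriptions, and CD34 protein is part of the GMP gate. Of the markers that are in the rule, *Adgrg1*, an adhesion receptor, ranged over libraries from 103 to 198 CPM, *Ctla2a*, a cysteine protease inhibitor, from 60.9 to 307 CPM and *Myct1*, a gene of stem cells and endothelium, from 45.4 to 65.3 CPM. The remaining rule genes, *Meis1*, a homeobox partner of the Hox proteins, *Adgrl4*, another adhesion receptor, and *Car2*, a carbonic anhydrase, were each lower in both GMP libraries than in both Lin-/CD11b+ libraries, *Car2* for example at 53.7, 46.1, 130.1 and 198 CPM. Of the endothelial and stromal genes, *Cdh5*, *Fabp4*, *Lyve1*, *Stab2*, *Cxcl12* and *Col1a1* were at 0 in all 4 libraries, and *Lepr*, the leptin receptor, had 12.5, 12.8, 23.3 and 9.59 CPM of the summed 13, 12.8, 25.2 and 12.2 CPM.

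The promoters of *Myct1* and *Cd34* are shown because both genes mark the group and both windows hold a GATA motif. They reach from 250 bases before to 50 bases after the start in RefSeq (build GRCm38.p6), *Myct1* at chr10:5593478-5593777 and *Cd34* at chr1:194938571-194938870, both on the plus strand. Capitals mark GATAAG, the GATA motif, and in *Myct1* also ACTTCC, the reverse complement of the ETS motif GGAAGT.
Myct1: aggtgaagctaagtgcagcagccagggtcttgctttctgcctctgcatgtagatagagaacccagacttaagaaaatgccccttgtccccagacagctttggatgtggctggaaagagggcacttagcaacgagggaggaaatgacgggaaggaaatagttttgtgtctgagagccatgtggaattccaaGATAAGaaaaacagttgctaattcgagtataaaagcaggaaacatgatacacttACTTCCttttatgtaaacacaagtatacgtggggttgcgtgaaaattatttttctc
Cd34: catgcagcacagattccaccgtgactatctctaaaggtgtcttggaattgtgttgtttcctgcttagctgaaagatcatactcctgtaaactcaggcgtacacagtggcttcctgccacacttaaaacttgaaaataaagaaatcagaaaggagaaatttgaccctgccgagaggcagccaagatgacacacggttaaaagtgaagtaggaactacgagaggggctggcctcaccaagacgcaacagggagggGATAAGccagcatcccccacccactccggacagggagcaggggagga
On either strand, GATAAG stood in 7.32% and GGAAGT in 23.7% of 32544 RefSeq promoter windows of the same length. The windows of *Adgrg1*, *Ctla2a*, *Adgrl4* and *Muc13* held neither, and that of *Meis1* held GGAAGT. A match describes letters in a window and is no sign of binding.

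The share of cells that met the rule was lower in *Tet2* KO than in WT in the GMP sort and higher in the Lin-/CD11b+ sort. It was 227 of 1258 cells (18%, exact binomial interval 16% to 20.3%) in WT GMP and 251 of 2719 (9.23%, 8.17% to 10.4%) in *Tet2* KO GMP. In the Lin-/CD11b+ sort it was 195 of 1924 (10.1%, 8.82% to 11.6%) in WT and 388 of 3068 (12.6%, 11.5% to 13.9%) in *Tet2* KO. A deeper cell meets a rule on detected genes more easily, so the rule was also applied after each cell was thinned to 5000 UMIs, just under the lowest cell at 5003. The shares were then 5.41%, 1.88%, 5.82% and 9.55%, with the same order of genotypes within each sort, but the highest share moved from WT GMP to *Tet2* KO Lin-/CD11b+. Of the members, 26%, 19.1%, 45.6% and 62.9% also met the rule when thinned. Thinning can also remove the *Hlf* or *Procr* UMIs of a cell. Of the 68, 51, 112 and 293 cells that met the rule when thinned, 59, 48, 89 and 244 were members as deposited. The rest failed the limits on *Hlf* and *Procr* or on the basophil proteases as deposited. The gates set what each library holds, so a share is one of a sorted population.

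**Figure D1:**
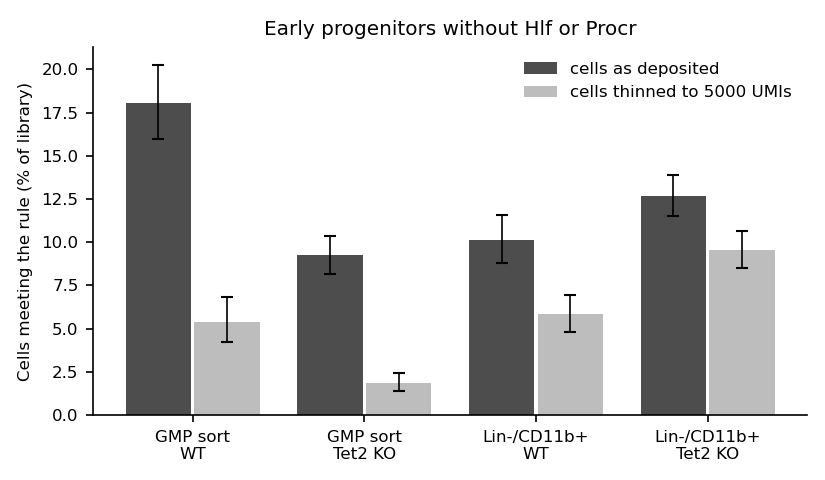
Share of cells of each library (percent) that met the rule, in cells as deposited and in cells thinned to 5000 UMIs, with exact binomial 95% intervals for counting error. WT GMP is highest as deposited at 18% and Tet2 KO Lin-/CD11b+ is highest after thinning at 9.55%.

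The members near the limit of the rule were more numerous in the GMP sort. Exactly 3 rule genes were detected in 44.5%, 63.3%, 35.4% and 34% of the members and 5 or 6 in 24.7%, 12%, 34.4% and 34%. Just outside, 132, 308, 117 and 200 cells had exactly 2. From the outside inwards, granule RNA was lower and *Cd34* higher. *Elane*, neutrophil elastase, stood at 8560.4, 7523, 3979 and 2772 CPM in the cells with 2 rule genes, at 5683, 6142, 2759 and 1522 CPM in members with 3 and at 3177, 3522, 1199 and 329.9 CPM in members with 5 or 6. *Cd34* stood at 120.2, 112, 118 and 129 CPM, 134, 123, 201 and 148 CPM and 214, 193, 287 and 224 CPM in the same classes. *Cebpe*, a transcription factor of granulocyte differentiation, followed *Elane* only in the Lin-/CD11b+ sort, with 93.9 and 38.3 CPM in members with 3 rule genes and 60.7 and 7.84 CPM in those with 5 or 6, against 146 and 151 CPM and 173 and 179 CPM in the GMP sort. *Cpa3*, a carboxypeptidase of mast cells and basophil progenitors, stood at 70.8, 119, 63.4 and 85.9 CPM with 2 rule genes and at 277, 261, 112 and 125 CPM with 3. Deeper cells reach more rule genes, and the part of depth in these classes was not tested.

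**Figure D2:**
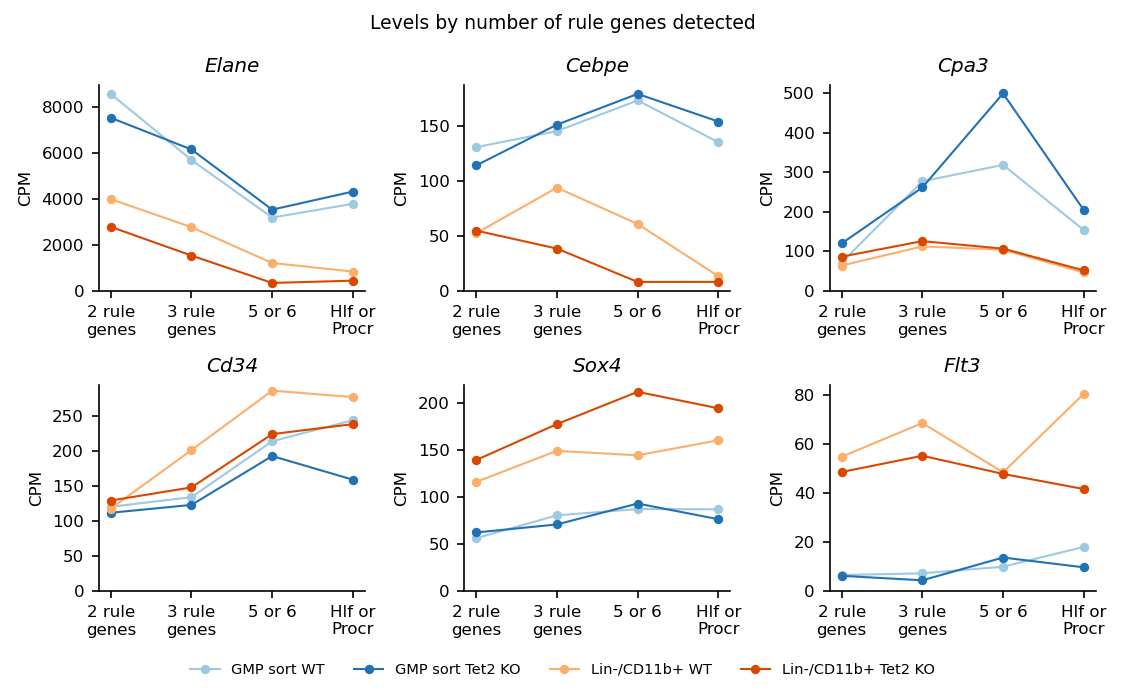
Level of 6 genes in CPM (vertical axes start at 0, with a scale for each panel) in cells with exactly 2 rule genes, members with 3 and members with 5 or 6 rule genes, and cells with Hlf or Procr, with 1 line per library. Elane is lower and Cd34 higher at each step over the classes from 2 to 5 or 6 rule genes in all 4 libraries, and Sox4 and Flt3 are lower in both GMP libraries than in both Lin-/CD11b+ libraries in every class.

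Members of the GMP sort had more primary granule RNA than members of the Lin-/CD11b+ sort, and less RNA of antibody, neutrophil and lymphoid priming genes. Of the 8 lowest genes over both genotypes, *Igkc*, *Igha*, *Jchain*, *S100a9*, *Camp*, *Ngp* and *S100a8* were antibody or neutrophil genes and *Dntt* a lymphoid priming gene. The summed log2 ratios of GMP over Lin-/CD11b+ in WT and *Tet2* KO were 1.03 and 1.49 for primary granule, -4.36 and -3.41 for B and plasma cell, -3.13 and -2.36 for neutrophil, and -2.64 and -2.13 for lymphoid priming genes. The antibody and neutrophil sums include the few members that held most of this RNA. *Elane* had 4586 and 5686 CPM in WT and *Tet2* KO GMP members and 1751 and 1061 CPM in the Lin-/CD11b+ members, a log2 ratio of GMP over Lin-/CD11b+ of 1.39 (1.34 to 1.44) in WT and 2.42 (2.38 to 2.47) in *Tet2* KO, with exact conditional intervals. *Mpo*, the myeloperoxidase of primary granules, had 4436 and 5106 CPM against 2051 and 1820.3 CPM. *Ms4a3*, a membrane protein of granulocyte-monocyte progenitors, had 1058 and 1204 CPM against 400.0 and 238 CPM, and *Cebpe* 162 and 153 CPM against 62.4 and 25 CPM. *Mpo* was nevertheless found in most members of both sorts. Thinned to 5000 UMIs, 227 of 227 and 251 of 251 GMP members and 171 of 195 and 335 of 388 Lin-/CD11b+ members had a *Mpo* UMI, and 41.9%, 39.4%, 14.4% and 7.47% of the members had a *Cebpe* UMI, beside 66.5%, 66.1%, 24.1% and 11.6% in cells as deposited. In thinned antibody-rich cells, *Mpo* was in 14.6% and 20.5%, *Elane* in 10.4% and 20.5% and *Cebpe* in 2.44% and 2.16%. *Mpo* and *Elane*, the latter in 45.1% and 39.2% of the Lin-/CD11b+ members, were above these shares in the members. Neutrophil-type cells, those of the Lin-/CD11b+ libraries outside the group in which *S100a8* and *S100a9* took 5% or more of the UMIs, had *Cebpe* in 85.4% and 78.2%, *Mpo* in 21% and 29.8% and *Elane* in 24.8% and 39.9%. Because they can make granule RNA themselves, they were not used as a measure of free granule RNA. The share of *Elane* in *Tet2* KO Lin-/CD11b+ members, 39.2%, was above that of antibody-rich cells, 20.5%, but not above that of neutrophil-type cells, 39.9%. The part of free RNA in it was not tested.

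A gene was counted as different when it was at least 1.5-fold apart on CPM + 10, and genes under 20 UMIs in the libraries compared were set aside. In WT, 119 of 9408 genes (1.26%) were higher in GMP members and 219 of 9408 genes (2.33%) lower. In *Tet2* KO, 160 of 9815 genes (1.63%) were higher and 483 of 9815 genes (4.92%) lower, and TMM scaling gave 251 higher and 343 lower. Of 10 primary granule genes, 9 were higher in WT and 9 in *Tet2* KO, with median log2 ratios of 0.98 and 1.30 on CPM + 10, beside -0.01 and -0.06 over all genes counted. *Prtn3*, proteinase 3, had 3910.2, 4190.4, 2168 and 1876 CPM. *Ctsg*, cathepsin G, had 3503, 3530.4, 1667 and 1206 CPM. Among the 8 highest genes over both genotypes were also *Cst7*, a protease inhibitor, at 277, 271, 115 and 106 CPM, *Cd63*, a granule tetraspanin, at 698, 740.0, 291 and 284 CPM, and *Rgcc*, a cell cycle regulator, at 198, 227, 77.4 and 49.4 CPM. *Fcgr3*, the gene of the CD16 receptor, had 95.3, 104, 31.2 and 19.6 CPM. The GMP gate selects cells by CD16 protein, and the part of the gate in this RNA difference was not tested.

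Lymphoid priming genes and some multipotent progenitor genes were higher in the Lin-/CD11b+ members. *Flt3*, the receptor tyrosine kinase of lymphoid-primed progenitors, had 61.7 and 48 CPM in WT and *Tet2* KO Lin-/CD11b+ members and 8.65 and 6.42 CPM in GMP members. *Dntt*, the terminal transferase of lymphocyte receptor assembly, had 175 CPM in WT and 70.4 CPM in *Tet2* KO Lin-/CD11b+ members, from 48 and 58 cells, against 4 UMIs in WT and 0 in *Tet2* KO GMP members. *Satb1*, a chromatin organizer of lymphoid progenitors, had 48.9 and 44.4 CPM against 16.2 and 13.8 CPM, and *Sox4*, a transcription factor of progenitors, 141 and 192 CPM against 81.7 and 73.7 CPM. Over all genes counted, 2.33% were lower in GMP members of WT and 4.92% in those of *Tet2* KO. Of the lymphoid priming genes counted, 7 of 8 in WT and 4 of 6 in *Tet2* KO were lower in GMP members and none higher. Of the multipotent progenitor genes, 4 of 14 and 8 of 15 were lower, among them *Egfl7*, a secreted factor, and *Gcnt2*, a glycosyltransferase, in both, while *Plac8* was higher in both. The summed multipotent progenitor genes went the other way, with log2 ratios of 0.44 (0.41 to 0.47) and 0.53 (0.51 to 0.56), and *Plac8* had 5504, 6469.7, 3486 and 3752 CPM of 6327, 7134, 4669 and 4927 CPM in this sum.

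In thinned cells, *Dntt* was detected in 20% (14.6% to 26.3%) of the Lin-/CD11b+ members of WT and in 10.3% (7.47% to 13.8%) of those of *Tet2* KO, and in 0 of 227 and 0 of 251 GMP members, where 3 counts of the total allow a share of cells with a *Dntt* UMI of up to 1.32% and 1.20%. As deposited the shares were 1.32%, 0%, 24.6% and 14.9%. Neutrophil-type cells had *Dntt* in 2 of 157 and 0 of 188 and *Flt3* in 6 of 157 and 1 of 188 thinned cells, so both genes stood above free RNA in the Lin-/CD11b+ members, where *Flt3* was in 24.1% and 18.8%. Most members with *Dntt* also had a *Mpo* UMI, at a share that can be read only against the shares of *Mpo* given above. *Dntt* and *Mpo* were found together in 30 and 31 thinned members of WT and *Tet2* KO, out of 39 and 40 with *Dntt*, and *Dntt* and *Flt3* in 22 and 19. *Dntt* and *Gata2*, a transcription factor of stem cells, mast cells and megakaryocytes, were found together in 2 and 1.

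**Figure D3:**
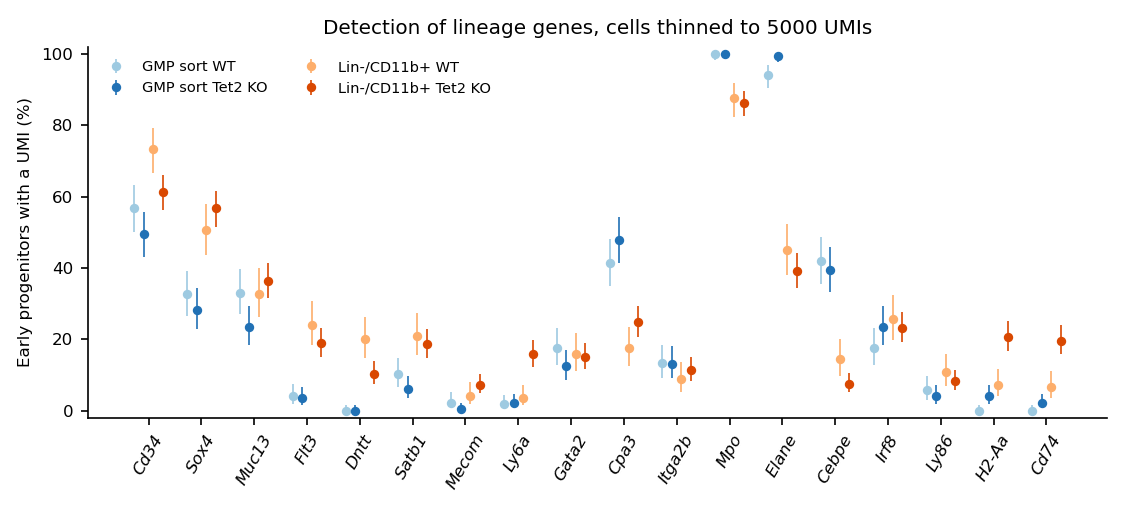
Share of members (percent) with at least 1 UMI of each gene after thinning every cell to 5000 UMIs, by library, with exact binomial 95% intervals. GMP members are at 100% and 100% for Mpo and at 0% for Dntt, and Lin-/CD11b+ members are above them for Cd34, Sox4, Flt3 and Dntt.

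Several basophil and mast cell genes were higher in the GMP members, within the limit that the rule puts on *Mcpt8* and *Prss34*. The summed list was higher in WT, with a log2 ratio of GMP over Lin-/CD11b+ of 0.60 (0.54 to 0.67), and about equal in *Tet2* KO, at 0.02 (-0.03 to 0.08). *Cpa3* had 293 and 320.3 CPM in WT and *Tet2* KO GMP members and 92.5 and 121 CPM in Lin-/CD11b+ members. *Fcer1a* and *Ms4a2*, subunits of the IgE receptor, had 109, 41.6, 21.1 and 21.3 CPM and 67.1, 32.3, 7.89 and 13.1 CPM. The *Fcer1a* UMIs came from 38, 25, 8 and 22 cells, and 85.7% of those in WT Lin-/CD11b+ were in 3 cells. Of the basophil and mast cell genes counted, 7 of 8 were higher in GMP members of WT and 5 of 8 in *Tet2* KO, where *Ifitm1*, an interferon-induced membrane protein, was lower. Over all genes counted, 1.26% were higher in WT and 1.63% in *Tet2* KO. *Gata2* and *Cpa3* were found together in 37, 27, 14 and 26 thinned members, out of 40, 31, 31 and 58 with *Gata2*.

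Megakaryocyte and erythroid RNA was at low level, with sums above those of the other cells of each library. *Klf1*, an erythroid transcription factor, had 6.83, 1.43, 2.26 and 2.57 CPM from 19, 5, 4 and 8 cells, and *Gata1* 9.79, 8.32, 4.51 and 7.02 CPM. *Pf4*, a platelet chemokine, had 3.19, 2.62, 4.89 and 9.59 CPM, and *Itga2b*, the integrin CD41, 22.8, 21.6, 18 and 20.3 CPM. The summed megakaryocyte genes had 107, 91.1, 134 and 174 CPM, against 79.8, 75.3, 120 and 156 CPM in the other cells. The summed erythroid genes had 43, 39.7, 34.6 and 48 CPM, against 24, 29.3, 24.4 and 29 CPM. The haemoglobins had 1.82, 1.66, 13.5 and 19.2 CPM in the members. Monocyte genes were uneven between the sorts. *Irf8*, a transcription factor of monocytes and dendritic cells, had 67.8, 64, 114 and 116 CPM, *Ly86*, an immune receptor subunit, 16.8, 14.3, 41.7 and 35.1 CPM and *Ly6c2*, a surface protein of monocytes and their progenitors, 337, 559, 173 and 221 CPM.

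Cells that met all other limits but had a *Hlf* or *Procr* UMI, 50, 23, 81 and 192 in number, were the nearest neighbours of the members. Beside them the members had more primary granule RNA and more of some basophil genes. The summed primary granule genes had 19499, 21502, 6935 and 5413 CPM in the *Hlf* or *Procr* positive cells, against 22253, 24269, 10906 and 8655 CPM in the members. The summed basophil and mast cell genes were not higher in every library, with 856, 859, 1253 and 1041 CPM in the *Hlf* or *Procr* positive cells, against 1444, 1145, 950.0 and 1126 CPM in the members. *Cpa3* was at 153, 204, 45.7 and 51 CPM in the *Hlf* or *Procr* positive cells, below the members in all 4 libraries, *Fcer1a* at 8.46, 0, 0 and 0.526 CPM and *Elane* at 3777, 4309, 825 and 429 CPM. *Apoe*, apolipoprotein E, was at 181, 171, 134 and 259 CPM, against 259, 376, 177 and 338 CPM in the members. *Csrp3*, a LIM protein, *Kctd20*, *Abcd2*, a peroxisomal transporter, and *Far2*, a fatty acyl reductase, completed the 8 highest genes with *Ms4a2*.

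Among the 8 lowest genes in the members were *Hlf* and *Ctla2a*, which the rule used. The others were lower in the members in all 4 libraries. *Myl10*, a myosin light chain, was at 52.7, 26.1, 597 and 411 CPM in the *Hlf* or *Procr* positive cells, against 33, 7.85, 233 and 195 CPM in the members, and *Pde4b*, a cyclic AMP phosphodiesterase, at 25.4, 23.7, 49 and 39.4 CPM, against 11.4, 10.2, 30.1 and 22.2 CPM. *Rbpms*, an RNA-binding protein, *Dok2*, an adaptor protein, *Selp*, P-selectin, and *Gm16152* complete these. *Mecom*, a transcription factor of stem cells, was at 8.46, 0, 35.9 and 38.4 CPM, against 4.32, 1.66, 12 and 16.1 CPM, and *Ly6a*, which encodes Sca1, at 2.82, 19, 77.3 and 120.4 CPM, against 3.87, 3.09, 11.3 and 43.5 CPM. Both were lower in the members of the Lin-/CD11b+ sort. The values of *Ly6a* in WT GMP and of *Mecom* in *Tet2* KO GMP had the other order. There 3 of 50 and 0 of 23 *Hlf* or *Procr* positive cells had a UMI of the gene, too few to set an order. The values of the *Tet2* KO GMP library rest on 23 cells, and RNA of the same cells made the classes, so these contrasts are descriptions.

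Beside committed cells the members had more *Cd34*, *Sox4* and *Gata2* RNA. Cells outside the group with *Mpo* and *Ly86* UMIs and no *Cebpe* UMI had *Irf8* at 568, 407, 727 and 530.3 CPM and *Cd34* at 87.7, 66.4, 68.3 and 51 CPM. Their summed primary granule genes, at 19514, 21387, 10777 and 8891 CPM, were below those of the members in the GMP sort, at 22253 and 24269 CPM, and close to them in the Lin-/CD11b+ sort, at 10906 and 8655 CPM. Cells outside with *Mpo* and *Cebpe* and no *Ly86* had *Elane* at 12221, 11957, 11083 and 8735 CPM and *Cd34* at 68.1, 58.6, 33.7 and 52.8 CPM. *Sox4* was at 39.1, 33.2, 57.5 and 46.7 CPM in the first and 31.6, 36.1, 25.6 and 35.7 CPM in the second, below the members of the same library in each. *Gata2*, at 41, 25.2, 26.7 and 30.4 CPM in the members, was at 3.31, 1.88, 3.16 and 1.37 CPM and 6.04, 4.80, 1.91 and 5.28 CPM.

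Between genotypes the members differed in few genes. In the GMP sort, 22 of 9539 genes (0.231%) were higher in *Tet2* KO and 48 of 9539 genes (0.503%) lower, and in the Lin-/CD11b+ sort 78 of 9651 genes (0.808%) were higher and 51 of 9651 genes (0.528%) lower. With members limited to those with at least 4 rule genes, 238 and 242 genes in all passed the same fold in the GMP and Lin-/CD11b+ sorts, from fewer cells. *Ctse*, cathepsin E, an aspartic protease, had 74.4 and 2.62 CPM in WT and *Tet2* KO GMP members and 63.2 and 7.02 CPM in Lin-/CD11b+ members, a log2 ratio of *Tet2* KO over WT of -4.83 (-5.85 to -3.97) and -3.17 (-3.78 to -2.60). *Gm47283* had 30.0 and 0.713 CPM and 41.4 and 2.34 CPM. *Rpgrip1*, a protein of the photoreceptor cilium, was higher in *Tet2* KO with 0.910 and 34.7 CPM and 4.14 and 36.3 CPM. In each of these 3 genes both *Tet2* KO libraries stood on one side and both WT libraries on the other.

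*Ctse* and *Rpgrip1* were as unequal outside the group. In the other cells of the same libraries *Ctse* had 45 and 1.54 CPM and 35.1 and 2.55 CPM, and *Rpgrip1* 0.703 and 34.3 CPM and 4.45 and 35.4 CPM.

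*H2-Q7* and *H2-Q6* were higher in *Tet2* KO in both sorts. *H2-Q7*, a non-classical class I gene, had 118 and 214 CPM in GMP members and 111 and 265 CPM in Lin-/CD11b+ members, a log2 ratio of 0.86 (0.70 to 1.02) and 1.26 (1.07 to 1.45). *H2-Q6* had 37.1, 63.3, 44 and 90.8 CPM, and since both genes are close copies the split of reads between them is uncertain. *Apoe*, at 259 and 376 CPM and 177 and 338 CPM, and *Mgst1*, a microsomal glutathione transferase, at 41.9 and 84.9 CPM and 32.7 and 52.2 CPM, were higher too. *Rsrp1*, *Acadl*, an enzyme of fatty acid oxidation, *Hist1h3d*, a histone, and *Lst1*, a leukocyte membrane protein, were also among the 10 highest.

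Lower in *Tet2* KO in both sorts were *Oser1*, an oxidative stress response gene, at 90.1 and 41.1 CPM and 85.7 and 45.8 CPM, and *Ier3*, an immediate early gene, at 101 and 40.2 CPM and 95.9 and 60.1 CPM. The glutathione transferases *Gstm1* and *Gstp1*, both with close relatives in sequence, had 307, 212, 134 and 92.6 CPM and 204, 93.9, 192 and 146 CPM. *Sept1*, a septin, *Phb*, prohibitin, and *Hmga1*, a chromatin protein, were also among the 10 lowest. *Cdkn1a*, the kinase inhibitor p21, was not among these 10 but passed the fold in both sorts, at 21.2 and 7.61 CPM and 41 and 17.5 CPM, a log2 ratio of -1.48 (-2.10 to -0.88) and -1.22 (-1.67 to -0.79).

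**Figure D4:**
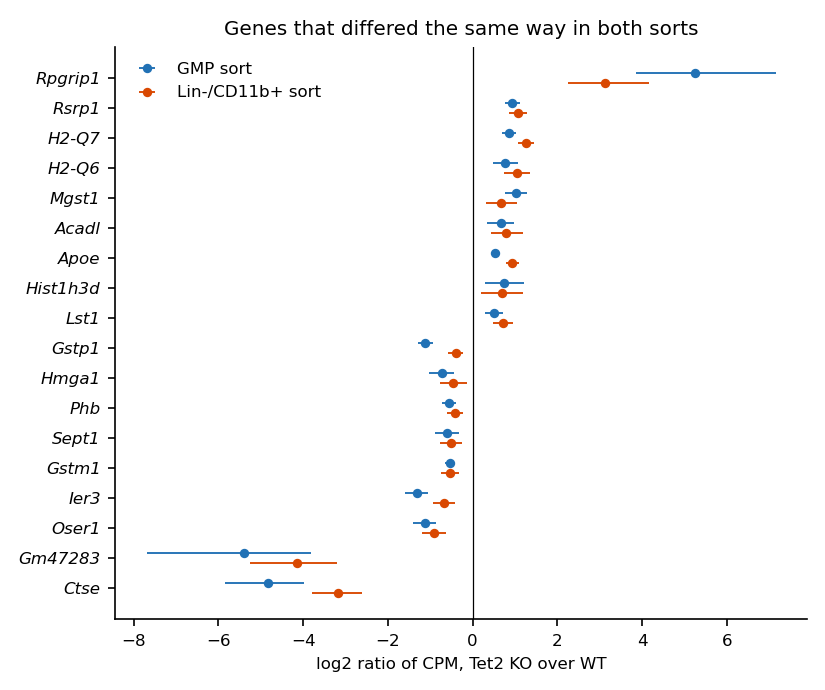
Level in Tet2 KO relative to WT (log2 ratio of CPM), with exact 95% intervals for counting error, for genes among the 10 highest and 10 lowest over both sorts, in members of the GMP sort and of the Lin-/CD11b+ sort. Rpgrip1, Gm47283 and Ctse lie beyond 3 in size in both sorts, at 5.25 and 3.13 for Rpgrip1.

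In the GMP sort, *Tet2* KO members had less immediate early RNA. Of this list 5 of 15 genes counted were lower and 0 higher, with a median log2 ratio of -0.43 on CPM + 10. Over all genes counted, 0.503% were lower, with a median of -0.02. *Junb*, a part of the AP-1 factor, had 112 and 57.5 CPM, *Egr1*, a zinc finger transcription factor, 42.8 and 20.9 CPM, *Ier2* 190.5 and 106 CPM and *Dusp1*, a phosphatase, 86.5 and 50.2 CPM. The summed list had 1477 and 1016 CPM in the members and 1432 and 869 CPM in the other GMP cells. In the Lin-/CD11b+ members it had 1779 and 1741 CPM. There 2 of 15 genes were lower, *Ier3* and *Nr4a1*, a nuclear receptor, beside 0.528% of all genes counted.

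In the GMP members, 2 of 9 basophil and mast cell genes counted, *Fcer1a* and *Ms4a2*, were lower in *Tet2* KO and none higher. Of 3 eosinophil genes, 2, *Prg2* and *Prg3*, were higher and none lower. Over all genes counted there, 0.503% were lower and 0.231% higher. *Fcer1a* had 109 and 41.6 CPM, a log2 ratio of -1.39 (-1.65 to -1.14), and *Ms4a2* 67.1 and 32.3 CPM, while *Cpa3* had 293 and 320.3 CPM and *Hdc*, histidine decarboxylase, 112 and 113 CPM. For *Ms4a2* the difference was not seen among cells that met the rule when thinned, with a log2 ratio of 0.0026. *Prg2*, the eosinophil major basic protein, had 4.32 and 86.6 CPM, with 88.5% of the *Tet2* KO UMIs in 3 of the 18 cells that had any. Without *Prg2* the log2 ratio of the summed eosinophil genes was 0.84 in place of 2.12. These summed genes had 30.9 and 134 CPM in WT and *Tet2* KO GMP members. GMP cells outside the group went the other way, at 101 and 62.9 CPM, and those with exactly 2 rule genes had 195 and 230 CPM.

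In the Lin-/CD11b+ sort, 2 of the 3 highest genes in *Tet2* KO members, *H2-Eb1* and *H2-Aa*, were of MHC class II, the complex that presents peptides to helper T cells. *H2-Eb1*, a beta chain, had 4.14 and 47.7 CPM in WT and *Tet2* KO, a log2 ratio of 3.53 (2.66 to 4.55), and *H2-Aa*, an alpha chain, 12.4 and 70.6 CPM, a log2 ratio of 2.51 (1.99 to 3.07). *H2-Ab1*, the partner of *H2-Aa*, had 54.1 and 138 CPM, and *Cd74*, the invariant chain, 42.1 and 120.0 CPM. In GMP members *H2-Aa* had 1.14 and 5.23 CPM, *H2-Eb1* 0.228 and 2.38 CPM and *H2-Ab1* 37.1 and 37.8 CPM. Of the class II genes counted, 4 of 9 were higher in *Tet2* KO Lin-/CD11b+ members and 0 lower, with a median log2 ratio of 0.47. Over all genes counted there, 0.808% were higher and 0.528% lower, with a median of 0.02. In the GMP sort 0 of 7 passed, beside 0.231% higher and 0.503% lower of all genes counted. *H2-DMa*, which helps load peptides, had 135, 103, 169.5 and 211 CPM. *Ciita*, the master activator of the class, had 0, 0, 4 and 12 UMIs.

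The promoters of *H2-Aa* and *H2-Eb1* are shown because these genes led the Lin-/CD11b+ contrast together. They lie on chromosome 17 of GRCm38.p6, *H2-Aa* at chr17:34287774-34288073 on the minus strand and *H2-Eb1* at chr17:34305617-34305916 on the plus strand (RefSeq, 250 bases before to 50 after the start). Capitals mark CTGATTGG, the core of the Y box of class II promoters.
H2-Aa: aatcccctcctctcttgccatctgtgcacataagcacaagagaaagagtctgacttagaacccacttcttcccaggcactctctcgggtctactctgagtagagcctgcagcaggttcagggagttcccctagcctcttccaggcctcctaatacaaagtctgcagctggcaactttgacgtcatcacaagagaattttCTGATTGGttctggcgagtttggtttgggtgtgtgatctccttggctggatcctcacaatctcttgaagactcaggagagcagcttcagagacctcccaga
H2-Eb1: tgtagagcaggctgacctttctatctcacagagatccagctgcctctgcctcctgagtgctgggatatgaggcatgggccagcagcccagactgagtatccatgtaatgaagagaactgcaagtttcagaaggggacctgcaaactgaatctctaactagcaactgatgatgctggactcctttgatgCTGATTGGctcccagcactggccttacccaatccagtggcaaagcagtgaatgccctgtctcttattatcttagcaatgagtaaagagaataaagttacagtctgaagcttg
On either strand CTGATTGG stood in 4.07% of the 32544 windows. It was also in that of *H2-Oa* and not in those of *H2-DMa*, *H2-DMb1*, *H2-DMb2* and *H2-Ob*.

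The class II RNA was spread over many *Tet2* KO members. The 3 highest cells held 25.5% of the *H2-Aa* and 30.9% of the *H2-Eb1* UMIs, and 42.1% of those of *Cd74*. In thinned cells, *H2-Aa* was detected in 7.18% (3.98% to 11.8%) of the Lin-/CD11b+ members of WT and in 20.6% (16.7% to 25%) of those of *Tet2* KO, beside 13.3% and 29.6% as deposited, and *H2-Eb1* in 3.08% (1.14% to 6.58%) and 15.5% (12% to 19.5%). In neutrophil-type cells *H2-Aa* was in 8.28% and 7.45% and *H2-Eb1* in 6.37% and 6.91%. The WT members stood at or under this background and the *Tet2* KO members above it. In antibody-rich cells *H2-Aa* was in 15.2% and 25.4% and *H2-Eb1* in 23.2% and 36.2%, so the members were not above this second measure. How much class II RNA the antibody-rich cells make themselves was not tested. *Cd74* was in 6.67% and 19.6% of the members and in 13.4% and 18.6% of the neutrophil-type cells, and its shares are read as background. With members that held a UMI of a B cell or dendritic cell gene left out, the log2 ratio of the summed class II genes was 0.90 in place of 0.98.

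*H2-Aa* was also higher towards the stem cell end. In *Tet2* KO Lin-/CD11b+ cells it stood at 27.3 CPM in members with 3 rule genes, at 120.4 CPM in members with 5 or 6 and at 172 CPM in the *Hlf* or *Procr* positive cells, and in WT at 12.7, 16.9 and 38.1 CPM. The cells of the Lin-/CD11b+ libraries outside the group had summed class II genes at 1283 and 2693 CPM in WT and *Tet2* KO, against 339 and 672 CPM in the members, so the higher level in *Tet2* KO was found outside the group too.

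**Figure D5:**
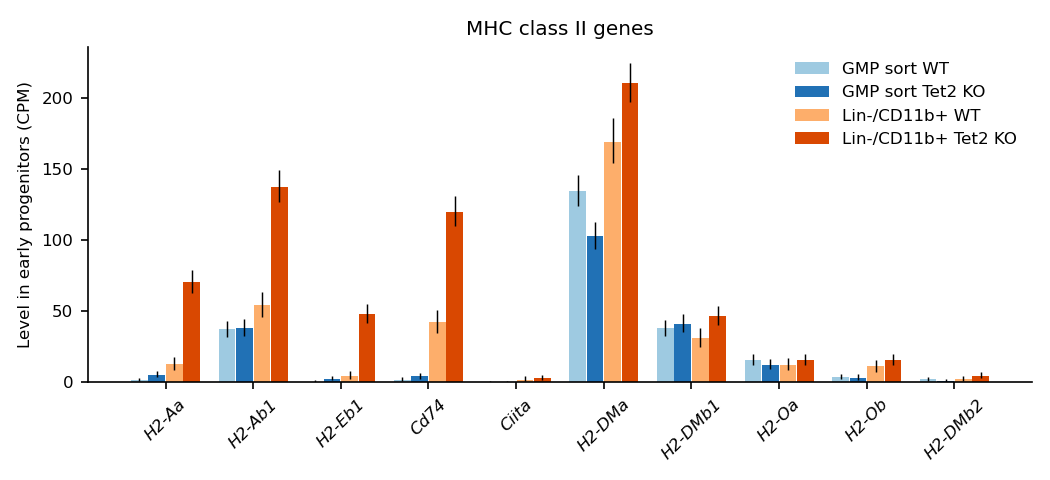
Level in the members (CPM, from 0) of genes of the MHC class II list by library, with exact Poisson 95% intervals. Tet2 KO Lin-/CD11b+ members are highest for H2-Aa, H2-Ab1, H2-Eb1 and Cd74, at 70.6, 138, 47.7 and 120.0 CPM.

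Interferon-stimulated genes were partly higher in the same members. Of this list 4 of 21 genes counted were higher and 0 lower in *Tet2* KO in the Lin-/CD11b+ sort, with a median log2 ratio of 0.43. Over all genes counted there, 0.808% were higher and 0.528% lower, with a median of 0.02. In the GMP sort 0 of 19 passed, with a median of 0.15, beside -0.02 over all genes counted. Among the 4 higher genes were the GTPases *Igtp*, with 8.65 and 29.9 CPM, *Iigp1*, with 3.01 and 13.3 CPM, and *Gbp2*, with 4.89 and 16.4 CPM. *Isg15*, a ubiquitin-like protein, had 11.6, 11.9, 15.4 and 24.3 CPM and *Bst2*, tetherin, 153, 168, 166 and 167 CPM. The class I list had summed log2 ratios of 0.21 (0.18 to 0.24) for GMP members and 0.35 (0.32 to 0.38) for Lin-/CD11b+ members, and *Tap1*, a peptide transporter, had 55.3 and 89.6 CPM in Lin-/CD11b+ members.

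Some stem cell genes were higher in *Tet2* KO members of the Lin-/CD11b+ sort. *Ly6a* had 11.3 and 43.5 CPM, a log2 ratio of 1.95 (1.39 to 2.56). In thinned cells *Ly6a* was in 3.59% and 15.7% of the members and in 4.46% and 5.85% of neutrophil-type cells. Antibody-rich cells had it in 69.5% and 81.6%, and the part of free RNA in the members was not tested. *Mecom* had 12 and 16.1 CPM, with a log2 ratio of 0.42 (-0.20 to 1.08). The summed stem cell genes had a log2 ratio of 1.01 (0.79 to 1.24), and 2 of 6 genes were higher, beside 0.808% of all genes counted. This log2 ratio was 0.64 among cells that met the rule when thinned. The summed genes had 83.8 and 169 CPM in the members of WT and *Tet2* KO. They had 116 and 163 CPM in the other cells of this sort and 424 and 550 CPM in the *Hlf* or *Procr* positive cells. The higher level in *Tet2* KO was thus found outside the group too. A shallow cell can miss a *Hlf* or *Procr* UMI, the median member had 13154 and 10300.5 UMIs in WT and *Tet2* KO of this sort, and the part of depth was not tested. In the GMP sort, where the gate takes Sca1- cells, the sum was at -0.36 (-0.73 to 0.00). There 0 of 5 passed, beside 0.231% higher and 0.503% lower of all genes counted. Of 16 transcription factors, *Tal1*, a factor of early blood formation, at 9.40 and 23.4 CPM, and *Cebpa*, a factor of granulocyte commitment, at 14.7 and 31.6 CPM, passed in the Lin-/CD11b+ sort.

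*Dntt* and 3 of 10 primary granule genes counted were lower in *Tet2* KO members of the Lin-/CD11b+ sort, beside 0.528% of all genes counted. *Dntt* had a log2 ratio of -1.32 (-1.53 to -1.10), while *Flt3* stood at 61.7 and 48 CPM and *Il7r*, the interleukin 7 receptor, at 24 and 12 UMIs. Without *Dntt* the summed lymphoid priming genes had a log2 ratio of -0.22 in place of -0.62. *Elane* had a log2 ratio of -0.72 (-0.78 to -0.66), *Ms4a3* of -0.75 (-0.87 to -0.62) and *Cebpe* of -1.32 (-1.68 to -0.96). The shares of thinned members with an *Elane* UMI, 45.1% (38% to 52.4%) in WT and 39.2% (34.3% to 44.2%) in *Tet2* KO, had overlapping intervals. They stood beside 10.4% and 20.5% in the antibody-rich cells and 24.8% and 39.9% in the neutrophil-type cells. In the GMP sort the same 3 genes had 0.31 (0.28 to 0.34), 0.19 (0.13 to 0.24) and -0.08 (-0.24 to 0.07). The difference between the sorts was not tested. The neutrophil genes, at -0.90 (-0.95 to -0.85) in the Lin-/CD11b+ sort, were at -0.21 without the members rich in them, at -2.06 in members with at least 4 rule genes, at -1.97 among cells that met the rule when thinned and at -2.29 without the 5% of members with most UMIs. *Ighm*, an antibody heavy chain and the lowest gene, had 441 and 80.2 CPM, with 75.9% of the WT UMIs in 3 cells. The sign of its log2 ratio turned, to 1.31, among the cells that met the rule when thinned.

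Few or no cell cycle, ribosomal and metabolic genes passed the fold between genotypes. None of 20 S phase genes passed the fold in either sort, and of 20 G2/M genes *Ube2c*, a ubiquitin-conjugating enzyme of mitosis, was lower in the Lin-/CD11b+ sort. The summed S phase genes had log2 ratios of -0.29 (-0.34 to -0.24) and -0.08 (-0.14 to -0.03) in the GMP and Lin-/CD11b+ sorts, and the G2/M genes 0.27 (0.22 to 0.32) and -0.29 (-0.35 to -0.24). *Mki67*, a protein of cycling nuclei, was in 23.8%, 25.9%, 30.3% and 25.5% of thinned members. Of 24 ribosomal protein, 30 oxidative phosphorylation, 15 glycolysis and 10 DNA methylation genes counted in each sort, 0 passed in either. Over all genes counted, 0.231% were higher and 0.503% lower in the GMP sort, and 0.808% and 0.528% in the Lin-/CD11b+ sort. At these shares, 0 in a list of this size does not set it apart from other genes.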

How the data were processed

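Cells of 4 droplet libraries of mouse bone marrow, 1 per genotype and sort, were analysed from UMI counts per gene and cell deposited by the authors, after Cell Ranger 3.1.0 and Seurat on mm10 per the labels. The methods name kit v2 and the design text kit v3.1. The stated minimum is 200 genes and 5000 UMIs per cell with a mitochondrial share below 5%, but 413 deposited cells, 30 of them members, have 5% or more. Barcodes, UMI totals and gene numbers of 8969 of 8969 cells matched the deposited cell table. Members, gene lists and comparisons were chosen with earlier results of these data known.

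Counts were summed over members (Python 3.11.15, numpy 2.4.6, scipy 1.17.1, pandas 2.3.3). CPM have exact Poisson, shares exact Clopper-Pearson and log2 ratios exact conditional binomial 95% intervals. A count of 0 allows 3 counts. Thinning used seed 1. Named genes were those of the lists and, among genes with at least 100 UMIs, the 10 highest and 10 lowest between genotypes over both sorts, 8 and 8 between sorts and against *Hlf* or *Procr* positive cells, and 3 and 3 in each genotype comparison. Scripts were tested on simulated data. Alternatives were TMM factors (edgeR 4.0.16, R 4.3.3), other count filters, other numbers of rule genes, the rule on thinned cells, a mean over cells, and leaving out cells or the largest gene. Some genes that these rules name are not reported here. Figures used matplotlib 3.10.9.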

Additional observations from a re-analysis of the deposited data

Results flagged for a closer look

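*Prg3*, a relative of the eosinophil major basic protein, and *Csrp3*, a LIM protein, differed between genotypes in opposite directions in the sorts, each past a fold of 1.5 on CPM + 10, and the difference between the sorts was not tested. *Prg3* had 13.2, 30.9, 7.89 and 1.17 CPM, a log2 difference of *Tet2* KO over WT on CPM + 10 of 0.82 in GMP members and -0.68 in Lin-/CD11b+ members, with 58, 130, 21 and 5 UMIs of which 74.1%, 60.8%, 81% and 80% were in 3 cells of each library. *Csrp3* had 103, 42.1, 16.2 and 32.5 CPM, a log2 difference of -1.12 in GMP members and 0.70 in Lin-/CD11b+ members, from 51, 41, 7 and 26 cells, with 72.1% of the UMIs of WT Lin-/CD11b+ in 3 cells.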

How the results depend on the processing

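No paired analysis was possible between genotypes because each genotype is 1 mouse. Between sorts, a fit with the mouse as a block, which would take its error from the difference between the 2 genotypes on 1 residual degree of freedom, was not run. The share of cells that met the rule was 28.5%, 20.6%, 16.2% and 19.2% with at least 2 rule genes, 10.0%, 3.38%, 6.55% and 8.34% with at least 4, and 5.41%, 1.88%, 5.82% and 9.55% with the rule applied to thinned cells. Genes past the fold between genotypes numbered 70 in the GMP sort, 238 with at least 4 rule genes and 545 with the thinned rule, and 129 in the Lin-/CD11b+ sort, 242 and 261 under the same settings, and 85 with at least 100 UMIs. Between sorts they numbered 338 in WT and 643 in *Tet2* KO, and 605 and 1196 with the thinned rule. These selections hold fewer cells, and the thinned rule also takes in cells that were not members as deposited. The other 33 gene counts stayed within 1.5 times.

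Of the log2 ratios of summed lists, eosinophil genes in the GMP sort went from 2.12 to 0.81 with at least 4 rule genes, 3.14 with the thinned rule, 2.60 as a mean over cells and 0.84 without *Prg2*. In the Lin-/CD11b+ sort the stem cell genes went from 1.01 to 0.64 with the thinned rule and 0.79 without the gene with the largest difference, and lymphoid priming from -0.62 to -0.22 without its own. MHC class II genes went from 0.98 to 1.27 with at least 4 rule genes, 0.84 without the 5% of members with most UMIs and 0.86 as a mean over cells. Neutrophil genes went from -0.90 to -2.06 with at least 4, -1.97 with the thinned rule, -2.29 without the highest 5%, -0.21 without members rich in neutrophil genes, -0.76 without members with B cell or dendritic cell genes and -1.21 as a mean over cells. B and plasma cell genes went from -1.07 to -3.03, 1.29 and 1.18 under the first 3 of these, 0.25 without members rich in immunoglobulin, -0.17 without B cell or dendritic cell genes, -0.65 as a mean and -0.18 without the largest gene. Endothelial and stromal genes went from -1.05 to -0.32, 0.65 and -0.50 under the same first 3 and 0.45 without *Lepr*. *Ms4a2* in the GMP sort went to 0.0026 and *Ighm* in the Lin-/CD11b+ sort to 1.31 with the thinned rule. The cause was not tested, beyond what leaving out those cells shows. The settings without immunoglobulin-rich members, without members of high mitochondrial share (gene counts) and without B cell or dendritic cell genes, and the antibody-rich cells as a second measure of free RNA, were chosen after seeing the data. Depth limits genes under 20 UMIs and the *Hlf* or *Procr* positive class of 23 cells.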

Other observations

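Lists that carried few differences between genotypes are given here as values. Over all genes counted, 0.231% were higher and 0.503% lower in the GMP sort, and 0.808% and 0.528% in the Lin-/CD11b+ sort. At these shares, 0 in a short list does not set it apart from other genes. Of the multipotent progenitor genes 0 of 14 in the GMP sort and 0 of 15 in the Lin-/CD11b+ sort were higher in *Tet2* KO members and none lower. Of the adhesion and homing genes, *Cxcr4*, the receptor that holds progenitors in the marrow, was higher in *Tet2* KO Lin-/CD11b+ members, at 15.8 and 29.5 CPM against 14.6 and 21.2 CPM in the GMP members. *Cdkn3*, a cell cycle phosphatase, was higher in *Tet2* KO GMP members, at 18 and 34.7 CPM. *Ly6c2* passed in the GMP sort, at 337 and 559 CPM, as the one of 11 monocyte genes. The Hoxa cluster and its partners had summed log2 ratios of -0.35 (-0.54 to -0.15) for GMP members and 0.11 (-0.06 to 0.28) for Lin-/CD11b+ members, and none of 6 genes passed in either.

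Immediate early genes differed between the sorts as well. In *Tet2* KO 12 of 15 were lower in GMP than in Lin-/CD11b+ members, beside 4.92% of all genes counted. In WT 5 were lower, beside 2.33% of all genes counted, and *Egr1* had 42.8, 20.9, 71 and 86.1 CPM. The sorts were separate libraries, so this difference between sorts cannot be told apart from library preparation.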
